A study of Mus musculus with 45 samples.

Results

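RNA from the distal colon of mice lacking Il10, the gene of the anti-inflammatory cytokine interleukin-10, was compared with that of wild-type mice. The comparison used 18 of the 45 libraries of the series, chosen by their titles. The wild-type group (8 libraries) carried the wild-type genotype and received no treatment, and the knockout group (10 libraries) carried the Il10 knockout and received vehicle. No wild-type library of this cohort received vehicle, so the deletion and the vehicle cannot be told apart. The labels gave no strain, age, sex or batch, and did not say that each library came from its own animal, so the p-values measure the spread between these libraries. The aim here was the metabolism, the transport and the transcription factors of the tissue and how much the knockout libraries differed among themselves. These were read from 39 lists of genes and 26 gene families that together held 1812 genes, of which 1471 had enough counts to be tested.

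The targeted gene was checked first. Il10 had 10 counts summed over the 8 wild-type libraries, in 4 of which it was detected, and 0 counts in each of the 10 knockout libraries. Library totals ran from 22682491 to 26410857 counts in wild type and from 23215057 to 27824876 in the knockout, with similar shares of mitochondrial reads (4.61% to 5.71% and 3.98% to 5.57%). Xist stayed at or under 0.04 TPM (a level scaled by transcript length and library total) and the Y-linked Ddx3y at 13.7 TPM or more in every library.

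The levels of cell type markers differed between the groups. The summed level of 10 smooth muscle markers (such as Myh11 and Des) ran from 4588 to 10281 TPM in wild type and from 304 to 7610.0 TPM in the knockout, where 8 of 10 libraries were under all of wild type. All 10 markers were called lower. Leukocyte markers ran from 113 to 413 TPM in wild type and from 233 to 884 TPM in the knockout, and all 8 were called higher. Plasma cell markers ran from 387 to 578 and from 639.9 to 2540.2 TPM, and fibroblast markers from 436 to 802 and from 212 to 634 TPM. Epithelial markers overlapped between the groups (15055 to 18539 TPM and 15840.0 to 21556 TPM), with 8 of 10 called higher and 1 lower. Colonocyte markers ran from 11482 to 13843 TPM and from 10479 to 20590 TPM, with 5 of 10 called higher and 2 lower. Endothelial markers ran from 33.2 to 65.5 TPM and from 22.9 to 59.0 TPM, with 8 of 10 knockout libraries under all of wild type. Of the 8 endothelial markers 4 were called lower and 0 higher. Enteric neuron and glia markers ran from 62.7 to 137 TPM and from 10.3 to 121 TPM, with 8 of 10 knockout libraries under all of wild type and 8 of 11 markers called lower. No marker of these lists was at 0 in all libraries. In bulk tissue, fewer cells of a type and less RNA per cell cannot be told apart, and many of the gene groups below are therefore also given from a fit with the smooth muscle marker level as a covariate. Knockout library 3 lay within or near the wild-type range for many genes and for smooth muscle. Its values are given beside some of these genes, and for 19 named genes in the section on flagged results. Without library 3 cholesterol synthesis and uptake had 24 genes higher and 0 lower, glycolysis 16 and 3, and interferon and NF-kappaB factors 22 and 3. Lower potassium channels went from 27 to 40 and lower cytochromes P450 from 17 to 20. Some lists with near-equal counts did not keep their direction. Fatty acid oxidation went from 6 higher and 7 lower to 9 and 7, and epithelial factors from 7 and 8 to 10 and 8. The tryptophan and nicotinamide list went from 7 and 5 to 6 and 6. Pancreatic acinar markers were highest in wild-type library 5 (15272 TPM) and knockout library 6 (21548 TPM), and leaving out both ended 8 fold-change calls among the genes named here (Rxra, Pfkl, Cebpa, Ethe1, Kcnq1, Pax5, Plin2 and Slc6a8) and gained 2 (Ebp and Hmox1).

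The colon absorbs water, salts and short-chain fatty acids through a surface epithelium that draws much of its energy from the oxidation of butyrate, and it moves ions, metals, bile acids and vitamins through dedicated carriers of the solute carrier (Slc) family. Cells make cholesterol from acetyl-CoA through the mevalonate pathway and also take it up from lipoproteins, and the transcription factor Srebf2 drives both when sterols are low. In Il10-deficient mice the colon is known for a chronic inflammation driven by interferon-producing T cells, and interferon acts through Stat proteins and the interferon regulatory factors (Irf).

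Genes of cholesterol synthesis were higher in the knockout almost throughout. A gene was called when its Benjamini-Hochberg adjusted p over all 16435 genes tested was under 0.05, which held for 49.4% of them (25.2% higher and 24.1% lower in the knockout). Of the 25 genes of cholesterol synthesis and uptake, 24 were called higher and 0 lower, with a median log2 fold change of 1.23 against -0.01 over all genes. The exception was Ebp, a sterol isomerase, at 0.12 ± 0.05 (adjusted p = 0.0576), whose sign turned on the TPM scale (-0.089), but adjusted p was 0.0254 without knockout library 5, 0.0284 without knockout library 6 and 0.0468 without wild-type library 5. With the smooth muscle covariate 15 of the 25 were called higher, and on the TPM scale, where the median gene moved by -0.17, 20 were. Calls fell over all genes with the covariate, to 1288 higher and 899 lower from 4147 and 3966 in the main fit. The covariate counts of the lists below are to be read beside these. Over all genes 2176 were called higher and 6141 lower on the TPM scale. Where a list's counts are given below and its share of higher calls moved by over 10 percentage points on that scale, both counts are given, higher first.

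The promoters of 3 of these genes are shown because they span the pathway and the motifs found in it. Each is the 250 bases before the RefSeq gene start on the plus strand of GRCm38.p6, and the capitals mark the CCAAT box (CCAAT, or ATTGG on the other strand) and a sterol regulatory element form (TCACNCCAC, or GTGGNGTGA). Hmgcs1 (chr13:119690101-119690350) makes the HMG-CoA that enters the pathway, Idi1 (chr13:8885356-8885605) isomerises its first isoprenoid, and Lss (chr10:76531355-76531604) closes the sterol ring. The 3 were chosen with their values known.
Hmgcs1: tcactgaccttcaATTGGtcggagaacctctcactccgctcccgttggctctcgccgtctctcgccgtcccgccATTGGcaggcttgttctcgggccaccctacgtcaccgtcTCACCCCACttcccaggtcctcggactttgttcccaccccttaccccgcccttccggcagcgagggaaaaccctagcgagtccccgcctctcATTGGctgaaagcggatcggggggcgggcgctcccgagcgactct
Idi1: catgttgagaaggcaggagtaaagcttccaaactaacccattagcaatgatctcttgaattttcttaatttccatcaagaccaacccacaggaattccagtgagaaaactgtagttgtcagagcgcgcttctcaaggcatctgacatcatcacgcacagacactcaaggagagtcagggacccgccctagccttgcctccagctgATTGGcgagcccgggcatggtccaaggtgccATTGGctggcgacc
Lss: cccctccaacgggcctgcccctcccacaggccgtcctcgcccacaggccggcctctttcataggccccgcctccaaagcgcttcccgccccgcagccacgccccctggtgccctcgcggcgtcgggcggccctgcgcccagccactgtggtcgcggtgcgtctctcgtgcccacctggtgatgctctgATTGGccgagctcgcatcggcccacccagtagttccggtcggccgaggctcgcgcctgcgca
The CCAAT box was present 3 times in the Hmgcs1 window, 2 times in that of Idi1 and 1 time in that of Lss. Of the 25 genes 17 had a window in the table, and 16 of these (not Acat2) held at least 1 CCAAT box, against 37.5% of 27025 genes. The sterol element form was found in 1 of the 17, Hmgcs1, against 1.22% of all genes. A match describes the letters and does not show that a factor binds there.

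The called enzymes spanned the pathway from its entry to the sterol ring. Fdps (chromosome 3, 89093588 to 89101959 in mm10), which makes farnesyl pyrophosphate, measured 42.6 to 71.9 CPM (median 54) in wild type and 73.2 to 263 CPM (median 185) in the knockout. CPM are counts scaled to the library total after normalisation by the trimmed mean of M-values. The change was log2 fold change 1.64 ± 0.22, adjusted p = 3.31e-05, where the error is the standard error, as for every value given with ± from here on, and the groups did not overlap. Over all genes tested 3.09% had all 10 knockout libraries above and 2.8% all 10 below every wild-type library. Hmgcs1 rose by 1.22 ± 0.22 and Idi1 by 1.56 ± 0.23 on the log2 scale. Pmvk, the phosphomevalonate kinase, ran from 12.1 to 20.2 CPM (median 16.4) in wild type and from 22.9 to 58.4 CPM (median 37) in the knockout, so the groups did not overlap. The later enzymes Sqle, the squalene epoxidase, and Lss measured 1.46 ± 0.22 and 1.42 ± 0.19, with 9 and 9 libraries above the wild-type range. The single knockout library inside the wild-type range of Sqle was library 3 (59.2 CPM). Hsd17b7, a family member of the steroid dehydrogenases that works in this pathway, rose by 1.396 ± 0.20.

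**Figure D1:**
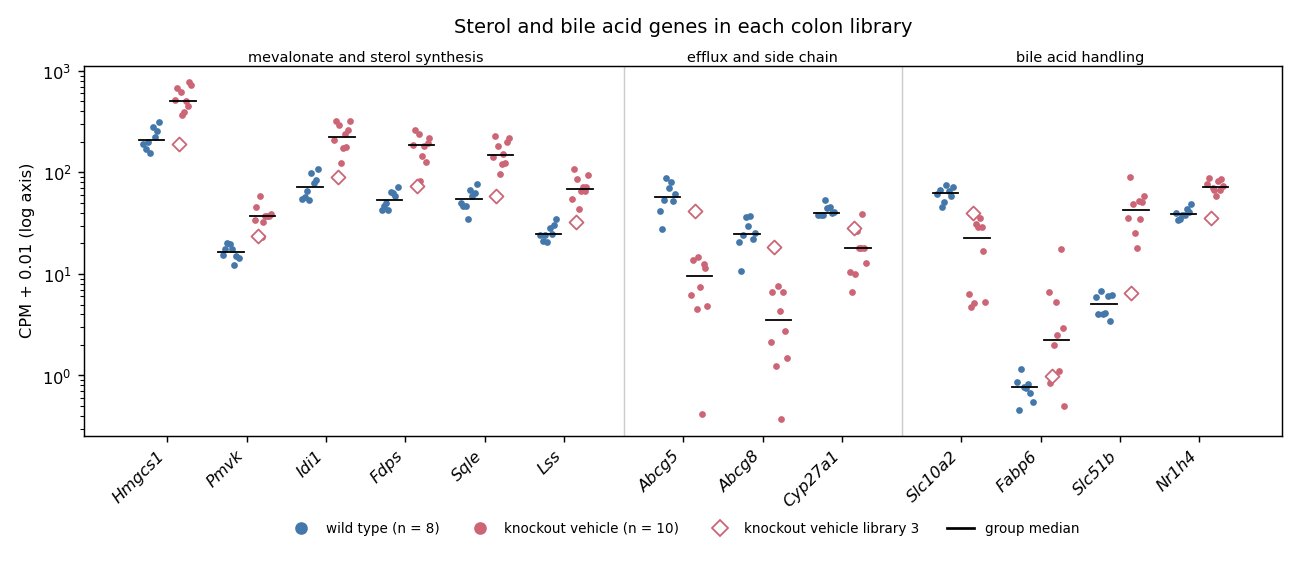
CPM (log axis) of genes of cholesterol synthesis and efflux and of bile acid handling in each of the 8 wild-type and 10 knockout vehicle libraries, with group medians as bars and knockout library 3 as an open diamond. Synthesis genes lie higher in the knockout, and the diamond lies lowest or near the wild-type points, as for Sqle at 59.2 CPM.

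The genes that move sterols and bile acids out of or into the epithelial cell went in both directions. Abcg5 and Abcg8, which form the pump that returns sterols to the lumen, fell together. Abcg5 went from 27.6 to 87.8 CPM (median 57.5) to 0.409 to 41.8 CPM (median 9.45) (log2 fold change -2.33 ± 0.48, adjusted p = 9.00e-04) and Abcg8 from 10.8 to 37 CPM (median 25) to 0.363 to 18.6 CPM (median 3.51) (log2 fold change -2.31 ± 0.50, adjusted p = 0.00128). In both genes 9 of 10 knockout libraries were under all wild-type libraries. Abca1, the exporter that loads cholesterol onto lipoproteins, measured 0.12 ± 0.18 and did not pass (adjusted p = 0.597). Apoe, a lipoprotein component, rose by 0.70 ± 0.18, and Lipg, a lipase of lipoproteins, by 0.58 ± 0.18.

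Bile acid uptake and export genes also separated. Slc10a2 (chromosome 8, 5083219 to 5105351), the sodium-dependent bile acid importer, ran from 45.1 to 75.5 CPM (median 63.2) in wild type and from 4.7 to 39.9 CPM (median 22.7) in the knockout (log2 fold change -1.62 ± 0.40, adjusted p = 0.00319), with no overlap. Slc51b, one chain of the basolateral bile acid exporter, ran from 3.41 to 6.79 CPM (median 5.02) and from 6.54 to 91 CPM (median 42.6) (log2 fold change 3.06 ± 0.37, adjusted p = 1.05e-05), whereas Slc51a, its partner chain, averaged 0.07 TPM in wild type and 0.152 TPM in the knockout and was not tested. Fabp6, the bile acid binding protein of the cytosol, measured 2.42 ± 0.60 and Nr1h4, the bile acid receptor FXR, 0.83 ± 0.13, and both rose. Cyp27a1, which hydroxylates sterols in the mitochondrion, fell from a median of 40 to 18 CPM (-1.17 ± 0.26), and Abcb1a, a drug and xenobiotic pump, from 545 to 304 CPM (-0.91 ± 0.20). In the list of bile acid and organic ion transport 8 of 21 genes were called higher and 6 lower (5 and 6 on the TPM scale, 5 and 1 with the smooth muscle covariate).

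Glycolysis rose for most enzymes, and its isoforms split. Of 20 genes 15 were called higher and 3 lower, with a median log2 fold change of 0.46. On the TPM scale 10 and 3 were (median 0.22), and with the smooth muscle covariate 5 and 0 were. Hk2, an inducible hexokinase that traps glucose in the cell, ran from 134 to 307 CPM (median 189.7) in wild type and from 304 to 1739.9 CPM (median 538) in the knockout (log2 fold change 1.73 ± 0.31, adjusted p = 3.09e-04). Pgk1, which makes ATP from bisphosphoglycerate, ran from 295 to 365 CPM (median 324) and from 329.9 to 983 CPM (median 675) (log2 fold change 1.02 ± 0.17, adjusted p = 1.30e-04). Pkm and Ldha, the pyruvate kinase and the lactate dehydrogenase of most cells, rose by 0.51 ± 0.11 and 0.55 ± 0.14. The 3 genes that fell were Pfkm, the muscle form of phosphofructokinase (-0.90 ± 0.20), Ldhb, the heart form of lactate dehydrogenase (-0.87 ± 0.29), and Pfkl, the liver form of phosphofructokinase (-0.18 ± 0.07), whose call was lost without any 1 of 10 of the 18 libraries (adjusted p 0.0513 to 0.0947). None of these 3 passed with the covariate, with which lower calls over all genes went from 3966 to 899. Smooth muscle markers fell in the same libraries, and their part in these 3 falls was not tested.

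In the main fit more genes of the mitochondrion rose than fell. In the citric acid cycle 15 of 25 genes were called higher and 0 lower (median 0.25; 4 and 2 on the TPM scale, 4 and 0 with the smooth muscle covariate), among them Sdhc, the membrane anchor of succinate dehydrogenase (0.44 ± 0.07), Mdh2, the malate dehydrogenase (0.41 ± 0.09), and Cs, the citrate synthase (0.32 ± 0.09). Nuclear-encoded subunits of complex I, the entry point of the respiratory chain, were called higher in 25 of 36 cases and lower in 0 (median 0.32). The same held for 12 of 17 subunits of ATP synthase and 8 of 14 of cytochrome c oxidase, with 0 and 0 lower. Atp5a1, the alpha chain of ATP synthase, ran from 1061 to 1211 CPM (median 1145) in wild type and from 1123 to 1831 CPM (median 1662) in the knockout (log2 fold change 0.51 ± 0.08, adjusted p = 8.04e-05). Ndufb6 measured 0.59 ± 0.09, Ndufa9 0.44 ± 0.07 and Cox5a 0.47 ± 0.08. For each of these 4 genes, named for their low adjusted p, 9 of 10 knockout libraries exceeded all wild-type libraries. As the mean log2(CPM + 1) over all tested members the groups overlapped, with 6 of 10 knockout libraries above wild type for complex I, 5 for cytochrome c oxidase and 8 for ATP synthase.

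The size of the mitochondrial change, and in some groups its direction, depended on the scaling. On the TPM scale 4 complex I subunits were called higher and 1 lower, and with the smooth muscle covariate 11 and 0. For ATP synthase these counts were 8 and 1, then 5 and 0, and for cytochrome c oxidase 4 and 2, then 5 and 0. Of the 13 subunits encoded in the mitochondrial genome 2 were called higher and 0 lower (mt-Nd5 at 0.24 ± 0.08 and mt-Nd6 at 0.40 ± 0.12), with a median of 0.17. The median turned to -0.02 on the TPM scale (0 and 3 called) and to -0.03 with the covariate (0 and 0 called). mt-Co1, a core subunit of cytochrome c oxidase, measured 0.02 ± 0.11 (adjusted p = 0.872), and its sign turned on the TPM scale (-0.18). Of 78 mitochondrial ribosomal proteins 22 were called higher and 3 lower (median 0.12; 4 and 8 on the TPM scale with a median of -0.05, 3 and 0 with the covariate), and the 3 lower ones were Mrpl49, Mrpl24 and Mrpl34. Acod1, which makes itaconate from a cycle intermediate in activated macrophages, was called higher (2.804 ± 0.72), but its level ran from 0.974 CPM to 34.8 CPM among the knockout libraries and its log2 fold change was 1.84 without knockout library 2 and turned to -0.041 with the covariate.

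Fatty acid oxidation had no common direction. Of 29 genes 6 were called higher and 7 lower (3 and 10 on the TPM scale), near the background share. Outside this list Bdh1, which makes the ketone body hydroxybutyrate, rose by 0.22 ± 0.07. Acadl, the long-chain acyl-CoA dehydrogenase, rose from a median of 152 to 252 CPM (0.74 ± 0.13) and Etfa, which passes the electrons on, by 0.60 ± 0.08. Acaa2, the last step of the mitochondrial cycle, fell from 72 to 50.5 CPM (-0.46 ± 0.11), and Acad12 fell in all 10 libraries below the wild-type range (-1.04 ± 0.22). Cpt1a, which carries fatty acids to the mitochondrion, measured 0.08 ± 0.10 and did not pass (adjusted p = 0.52), and its sign turned on the TPM scale (-0.12) and with the covariate (-0.05). Fatty acid and triglyceride synthesis was called higher in 14 of 27 genes and lower in 3, against 4 and 6 on the TPM scale and 5 and 0 with the covariate. Lpin2, a phosphatidate phosphatase, measured 26.9 to 31.2 CPM (median 28.4) and 30.3 to 112 CPM (median 80.7) (log2 fold change 1.503 ± 0.18, adjusted p = 1.11e-05), and Fasn, the fatty acid synthase, 0.52 ± 0.15. Scd2, a desaturase, rose by 0.91 ± 0.15, and the 3 genes that fell were Mgll, a monoglyceride lipase (-0.86 ± 0.25), Gpam, the first acyltransferase of triglyceride synthesis (-0.52 ± 0.16), and Plin2, a coat protein of lipid droplets (-0.29 ± 0.10).

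Serine synthesis rose. In the list of serine, glycine and one-carbon metabolism 9 of 18 genes were called higher and 1 lower (5 and 3 on the TPM scale). Phgdh, the first enzyme of serine synthesis, ran from 8.46 to 17.3 CPM (median 11.3) in wild type and from 25.5 to 81.3 CPM (median 46.7) in the knockout (log2 fold change 2.13 ± 0.21, adjusted p = 1.96e-06), so that every knockout library exceeded every wild-type library. Psat1, the next enzyme, rose by 1.402 ± 0.25 and Mthfd2, a mitochondrial folate enzyme, by 1.18 ± 0.18. The 1 that fell was Amt, a part of the glycine cleavage system, from a median of 8.16 to 2.84 CPM (-1.2003 ± 0.21). With the smooth muscle covariate 5 were called higher and 1 lower.

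Enzymes that consume arginine and tryptophan rose from near absence. Nos2, the inducible nitric oxide synthase, ran from 1.72 to 8.03 CPM (median 2.85) in wild type and from 7.41 to 1605 CPM (median 333) in the knockout (log2 fold change 6.87 ± 0.74, adjusted p = 4.34e-06). Ido1, which starts the breakdown of tryptophan, ran from 0.282 to 1.52 CPM (median 0.576) and from 1.02 to 318 CPM (median 87.3) (log2 fold change 7.33 ± 0.77, adjusted p = 3.37e-06). For both the lowest knockout value came from library 3 and overlapped the wild-type libraries, and the other 9 lay above them. Cd38 and Nampt, which consume and rebuild nicotinamide adenine dinucleotide, rose by 1.74 ± 0.25 and 1.20 ± 0.18. Ddc, which makes serotonin and dopamine, fell with no overlap (86.3 to 97.7 CPM (median 90.5) and 19.3 to 71.9 CPM (median 51.8)), and Oat, an ornithine aminotransferase, fell as well (-0.52 ± 0.12), with 9 of 10 knockout libraries below the wild-type range. Odc1, the first enzyme of polyamine synthesis, measured 0.23 ± 0.13 (adjusted p = 0.152). Arg2, the mitochondrial arginase, rose by 0.91 ± 0.25. The arginine list was called higher in 8 of 24 genes and lower in 3 (4 and 5 on the TPM scale), and the tryptophan and nicotinamide list in 7 and 5 of 20 (5 and 6).

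Nucleotide breakdown genes moved in both directions. Upp1, a uridine phosphorylase, ran from 34.9 to 63.6 CPM (median 45.6) in wild type and from 38 to 783 CPM (median 495) in the knockout (log2 fold change 3.38 ± 0.38, adjusted p = 6.01e-06). Xdh, the xanthine dehydrogenase that makes uric acid, ran from 52.2 to 87 CPM (median 70.1) and from 58.8 to 930.3 CPM (median 387) (log2 fold change 2.701 ± 0.35, adjusted p = 2.04e-05). Gda, the guanine deaminase, and Ada, the adenosine deaminase, rose by 2.36 ± 0.28 and 2.08 ± 0.30. In contrast Dpyd and Upb1, the first and the last enzyme of pyrimidine breakdown, fell (-1.11 ± 0.29 and -1.47 ± 0.30), as did Upp2, the second uridine phosphorylase (-0.79 ± 0.15). Upb1 had no overlap, at 9.58 to 12.3 CPM (median 11.3) in wild type and 1.25 to 9.26 CPM (median 3.19) in the knockout. Of the synthesis genes 12 of 25 were called higher and 3 lower (6 and 5 on the TPM scale). Rrm2, the ribonucleotide reductase chain of dividing cells, rose by 1.44 ± 0.24 and Tk1 by 0.76 ± 0.13, while Rrm2b, its form in resting cells, fell (-0.41 ± 0.10).

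The redox genes rose for 17 of 32 members and fell for 4 (9 and 8 on the TPM scale, 10 and 0 with the smooth muscle covariate). Gpx2, the glutathione peroxidase of the gut epithelium, ran from 88.2 to 153 CPM (median 109.9) in wild type and from 131 to 494 CPM (median 293) in the knockout (log2 fold change 1.45 ± 0.20, adjusted p = 2.79e-05). G6pdx, which supplies NADPH, and Txn1, the cytosolic thioredoxin, rose by 0.75 ± 0.10 and 0.96 ± 0.11. Prdx6, a peroxiredoxin, went the other way with no overlap, from 1851 to 2514 CPM (median 2001) to 686 to 1696 CPM (median 1179.6) (log2 fold change -0.86 ± 0.17, adjusted p = 7.67e-04), and Sod1, the cytosolic superoxide dismutase, fell (-0.24 ± 0.08), but its adjusted p was 0.0507 without wild-type library 3. Nfe2l2, the transcription factor of the oxidative stress response, measured -0.17 ± 0.08 (adjusted p = 0.0742), but adjusted p was 0.0234 without knockout library 1, 0.0442 without knockout library 7 and 0.0422 without wild-type library 3.

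Iron and haem genes were called higher in 10 of 28 cases and lower in 5 (median 0.05). On the TPM scale 8 were called higher and 10 lower (median -0.13), and with the smooth muscle covariate 7 and 1. Tfrc, the transferrin receptor, ran from 108 to 145 CPM (median 123) in wild type and from 151 to 871 CPM (median 503) in the knockout (log2 fold change 2.01 ± 0.31, adjusted p = 8.49e-05), with no overlap. Steap4, a metalloreductase, rose by 3.38 ± 0.45 and Alas1, the first enzyme of haem synthesis, by 1.58 ± 0.21. Slc40a1, the iron exporter ferroportin, fell from 312 to 443 CPM (median 402) to 134 to 369 CPM (median 218) (log2 fold change -0.69 ± 0.18, adjusted p = 0.00497). The later haem enzymes Uros and Ppox fell (-0.35 ± 0.08 and -0.39 ± 0.09). Hmox1, which breaks haem down, measured 0.46 ± 0.20 (adjusted p = 0.0611), but adjusted p was 0.0241 without knockout library 6, 0.0489 without knockout library 8 and 0.0293 without wild-type library 5.

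Retinoid and sphingolipid genes were mixed, with 3 of 23 and 10 of 35 called higher and 5 and 4 lower. On the TPM scale 3 retinoid and 6 sphingolipid genes were called higher and 9 and 12 lower. Dhrs9, a retinol dehydrogenase, ran from 1.6 to 5.71 CPM (median 2.53) in wild type and from 5.87 to 332 CPM (median 110.4) in the knockout (log2 fold change 4.94 ± 0.69, adjusted p = 4.34e-05), and the other 2 that rose were Rdh16 (0.70 ± 0.15) and Rdh10 (0.69 ± 0.18). Bco2, a carotenoid-cleaving oxygenase, fell from a median of 12.2 to 3.97 CPM (-1.29 ± 0.27) and Retsat, the retinol saturase, also fell (-0.52 ± 0.11). Adh1, an abundant alcohol dehydrogenase, ran from 1372 to 1652 CPM (median 1556) and from 396 to 2018 CPM (median 1038) (log2 fold change -0.55 ± 0.23, adjusted p = 0.0546). Its spread was wide in the knockout, with 9 libraries below and 1 above the wild-type range, and adjusted p was 0.0402 without knockout library 3, 0.00924 without knockout library 5 and 0.0433 without knockout library 8. Smpdl3b, a sphingomyelinase-like membrane enzyme, rose by 2.44 ± 0.27 with no overlap, and Kdsr, an early enzyme of sphingolipid synthesis, fell (-0.60 ± 0.08) with no overlap. Cytochromes P450, the oxidases of drugs, sterols and fatty acids, were called higher in 3 of 36 and lower in 17 (median -0.60), and with the covariate 0 and 0 were called. The 3 that rose were Cyp2j6 (0.83 ± 0.19), Cyp4f40 (0.64 ± 0.18) and Cyp4f14 (0.71 ± 0.22).

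Sulfide and steroid genes were called less often than genes over the whole set in the main fit. In the steroid list 2 of 19 were called higher and 4 lower (31.6%, against 49.4% over all genes). On the TPM scale 1 and 11 were, and with the smooth muscle covariate 0 and 2. In the sulfide list 2 of 10 were called higher and 0 lower (20%). Sqor, which oxidises the sulfide made by gut bacteria, rose from a median of 383 to 620.1 CPM (0.64 ± 0.12), and the other called gene of the sulfide list (1 higher and 2 lower on the TPM scale) was Ethe1 (0.23 ± 0.09), whose call was lost without any 1 of 8 of the 18 libraries (adjusted p 0.0528 to 0.0844). Hsd11b2, which inactivates glucocorticoids in the colon, ran from 292 to 388 CPM (median 301) and from 174 to 385 CPM (median 303) (log2 fold change -0.13 ± 0.11, adjusted p = 0.346) and did not pass. Creatine and phosphagen genes fell for Ckb, Ckm and Ak1 (-1.06 ± 0.28, -1.54 ± 0.41 and -0.90 ± 0.28), of which Ckm is a muscle gene, and rose for genes such as Ak4 and Slc6a8 (1.997 ± 0.51 and 0.26 ± 0.11). For Slc6a8 the call was lost without any 1 of 13 of the 18 libraries (adjusted p 0.0503 to 0.0841).

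**Figure D2:**
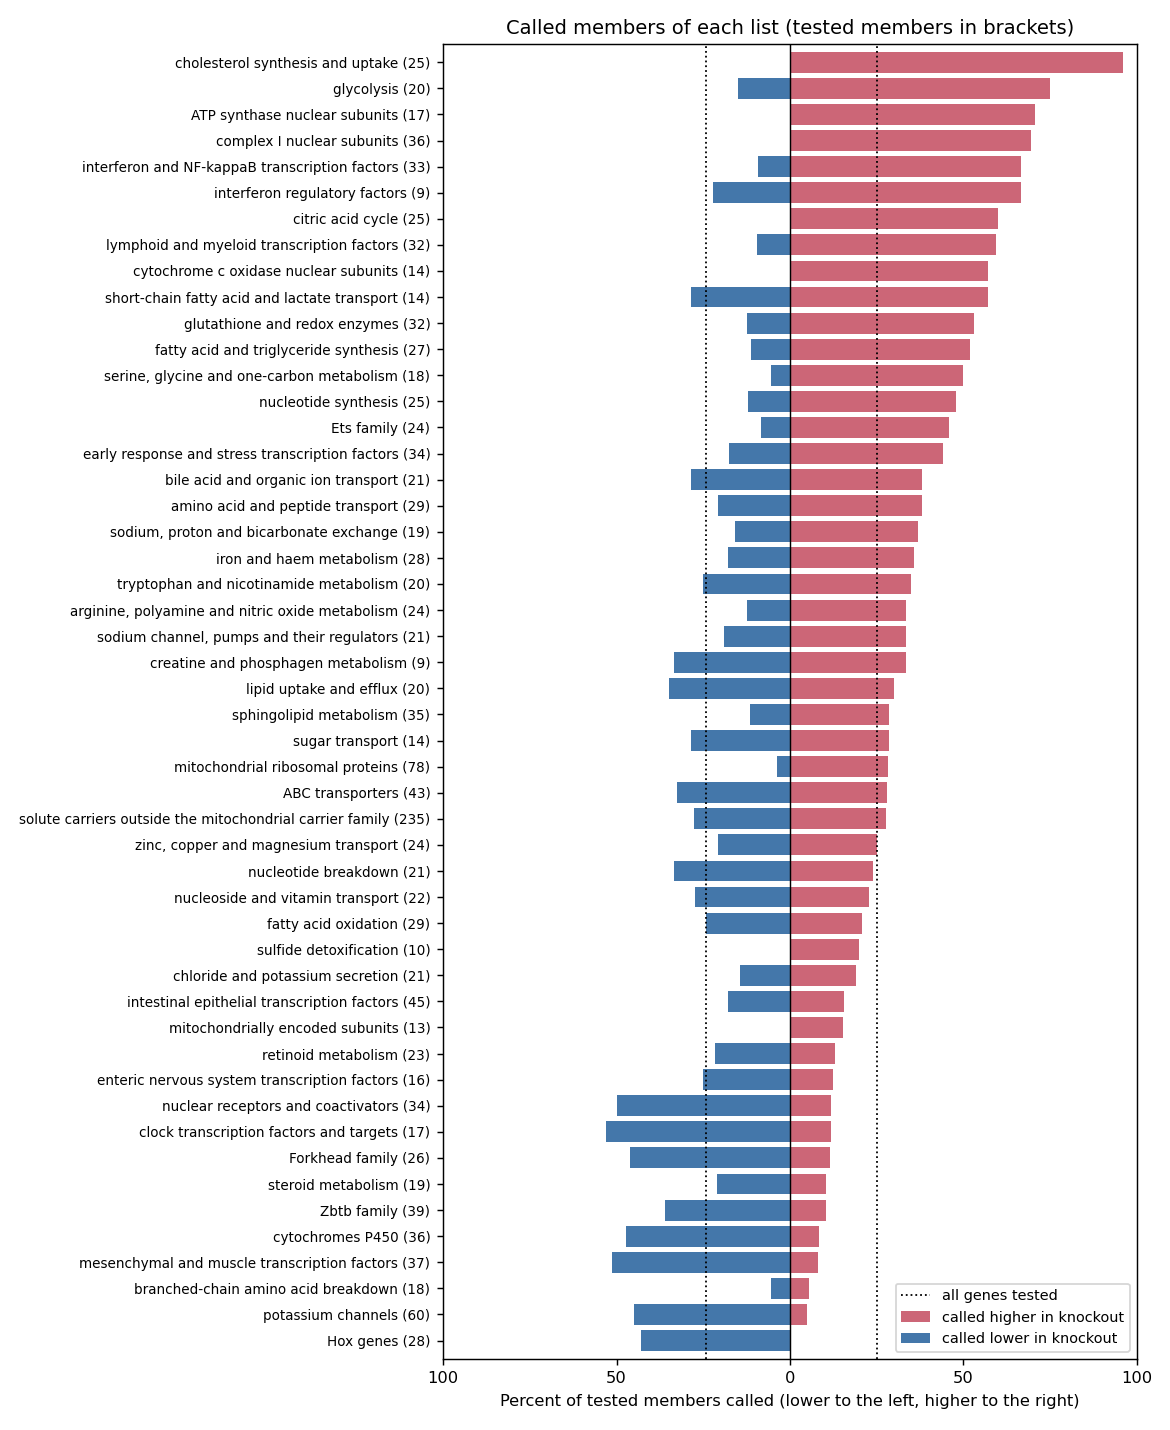
Share of the tested members of each list or family (number tested in brackets) called higher (right) or lower (left) in the knockout, with dotted lines at the shares over all genes tested (25.2% and 24.1%). Cholesterol synthesis, complex I and interferon transcription factors reach far right and nuclear receptors, clock genes and Hox genes reach left; lists with fewer than 9 tested members and some families are not drawn.

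Transport genes were called in both directions within nearly every class of solute, as were genes over the whole set tested. Of all 467 transport genes tested 119 were called higher and 135 lower (54.4%, against 49.4% over all genes). Over 235 solute carriers outside the mitochondrial carrier family 65 were called higher and 65 lower (median -0.01; 38 and 89 on the TPM scale), close to the background. For short-chain fatty acids and lactate 8 of 14 genes were called higher and 4 lower (3 and 3 on the TPM scale). Slc16a1, the monocarboxylate transporter MCT1 that carries butyrate, ran from 428 to 512 CPM (median 490.4) in wild type and from 209.9 to 405 CPM (median 311) in the knockout (log2 fold change -0.61 ± 0.11, adjusted p = 3.50e-04), with no overlap. Slc5a8, its sodium-coupled counterpart, rose from a median of 272 to 368 CPM (0.50 ± 0.17). Slc16a6 rose with no overlap (1.11 ± 0.19), and so did Emb, a chaperone of these transporters (1.22 ± 0.23).

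Genes of sodium, proton and bicarbonate exchange were called higher in 7 of 19 and lower in 3 (6 and 7 on the TPM scale, 5 and 0 with the smooth muscle covariate). Slc9a3, the apical sodium/proton exchanger NHE3, ran from 23.9 to 83.3 CPM (median 36) in wild type and from 36.4 to 566 CPM (median 221) in the knockout (log2 fold change 2.27 ± 0.43, adjusted p = 4.95e-04), and its scaffold Slc9a3r1 rose by 0.74 ± 0.13. Slc9a2, the other apical exchanger, measured -0.15 ± 0.12 (adjusted p = 0.31), and Slc26a3, the chloride/bicarbonate exchanger, -0.28 ± 0.15 (adjusted p = 0.114, but adjusted p was 0.015 without knockout library 9). Among carbonic anhydrases, which supply protons and bicarbonate, Car12 and Car13 rose (2.04 ± 0.34 and 1.09 ± 0.16) and Car1 and Car2 fell (-0.89 ± 0.26 and -0.36 ± 0.13). The third gene of the list that fell was Slc26a6, an anion exchanger (-0.53 ± 0.17). Of the epithelial sodium channel, Scnn1b fell (-0.75 ± 0.22) and Scnn1a measured -0.03 ± 0.09 (adjusted p = 0.774). Sgk2, a kinase that raises channel activity, ran from 20.7 to 33.4 CPM (median 22.3) and from 23.9 to 166 CPM (median 122) (log2 fold change 2.18 ± 0.27, adjusted p = 1.29e-05) and Fxyd4, a pump regulator, fell from a median of 13.4 to 1.61 CPM (-2.37 ± 0.54). Atp12a, the colonic proton/potassium pump, ran from 431 to 712 CPM (median 458) and from 248 to 2217 CPM (median 892) (log2 fold change 0.97 ± 0.28, adjusted p = 0.00912). Sodium channel, pump and regulator genes were called higher in 7 of 21 and lower in 4 (5 and 9 on the TPM scale).

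Of 21 genes of chloride and potassium secretion 4 were called higher and 3 lower (3 and 7 on the TPM scale). This share of 33.3% was under the 49.4% over all genes. Cftr, the apical chloride channel, measured -0.04 ± 0.18 (adjusted p = 0.852). The 4 genes that rose of 21 were Clcn2 (1.15 ± 0.17), Clic5 (0.89 ± 0.14), Kcnk6 (0.85 ± 0.15) and Adora2b, an adenosine receptor (2.24 ± 0.82). The wild-type level of Adora2b was low, with log2(CPM + 1) at 0.77 in library 5 and from 0 to 0.36 in the others. Its call was lost without any 1 of 6 of the 18 libraries (adjusted p 0.0507 to 0.0573). The 3 that fell were Kcnk5, a potassium leak channel, with no overlap (130.2 to 166 CPM (median 139) and 49.5 to 102 CPM (median 84.6)), Best2, a chloride channel of goblet cells (-0.61 ± 0.19), and Kcnq1, the basolateral potassium channel (-0.39 ± 0.16, turning to 0.10 with the smooth muscle covariate), whose call was lost without any 1 of 14 of the 18 libraries (adjusted p 0.0515 to 0.0851). Slc12a7, which moves potassium and chloride out of cells, fell with no overlap (-0.57 ± 0.06). Over the whole family of potassium channels 3 of 60 were called higher and 27 lower (median -0.92), and 2 and 4 with the smooth muscle covariate; the muscle channel subunit Kcnmb1 was among the lower ones (-1.29 ± 0.42). Enteric neuron and glia markers fell in the same libraries, by the values given above, and their part in the result was not tested. All 4 water channels tested were called: Aqp4 and Aqp8 rose (1.24 ± 0.25 and 0.54 ± 0.16), and Aqp11 and Aqp1 fell (-0.80 ± 0.13 and -1.02 ± 0.28). On the TPM scale 1 of the 4 was called higher and 2 lower.

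Amino acid carriers were called higher in 11 of 29 cases and lower in 6 (7 and 6 on the TPM scale). Both chains of the cystine and basic amino acid carrier rose, Slc3a1 from 0.605 to 3.7 CPM (median 1.6) to 2.92 to 55.1 CPM (median 25.2) (log2 fold change 4.01 ± 0.50, adjusted p = 1.56e-05) and Slc7a9 from 3.3 to 6.61 CPM (median 4.68) to 3.47 to 35.6 CPM (median 16) (log2 fold change 1.94 ± 0.32, adjusted p = 1.55e-04). Slc7a11, the cystine/glutamate exchanger, and Slc7a5, a carrier of large neutral amino acids, rose by 2.19 ± 0.52 and 0.97 ± 0.18. Slc1a5 and Slc38a1, carriers of glutamine, fell (-0.40 ± 0.13 and -0.50 ± 0.10), as did Slc15a1, the peptide carrier (-0.46 ± 0.16).

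Sugar and vitamin carriers included some of the steepest falls. Slc37a2, a glucose-6-phosphate exchanger, ran from 679 to 973 CPM (median 904) in wild type and from 29.5 to 465 CPM (median 228) in the knockout (log2 fold change -1.802 ± 0.40, adjusted p = 0.00165), with no overlap. In contrast Slc5a1, the sodium/glucose cotransporter, rose from a median of 110.4 to 208 CPM (0.84 ± 0.16). Slc5a6, which takes up biotin and pantothenate, fell with no overlap (47.3 to 66.8 CPM (median 58.8) and 12.2 to 43.7 CPM (median 23.1)). Slc46a1, the proton-coupled folate carrier, fell (-1.49 ± 0.32), and Slc52a3, a riboflavin carrier, rose by 0.32 ± 0.09. Slc44a4, a carrier of choline and thiamine pyrophosphate, rose by 0.64 ± 0.13 and Slc28a3, a nucleoside carrier, by 1.86 ± 0.38.

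Among metal carriers Slc30a10 had a wide range in the knockout. Slc30a10 (chromosome 1, 185454848 to 185468762), a manganese exporter, ran from 112 to 190.2 CPM (median 152) in wild type and from 0.125 to 165 CPM (median 4.21) in the knockout. Knockout libraries 3 and 5 held 165 and 113 CPM, library 6 held 25.1 CPM, and the other 7 held 8.1 CPM or less. The fold change did not pass (log2 fold change -2.16 ± 0.95, adjusted p = 0.0685) but adjusted p was 0.0116 without knockout library 3 and 0.037 without knockout library 5. Trpv6, the apical calcium channel, ran the other way, from 1.37 to 5.15 CPM (median 2.58) to 3.59 to 461 CPM (median 88.4) (log2 fold change 5.59 ± 0.83, adjusted p = 7.49e-05). Its 2 lowest knockout values were 3.59 CPM in library 7 and 8.04 CPM in library 3. Slc39a4, the zinc importer, rose from 119 to 167 CPM (median 147) to 142 to 363 CPM (median 244) (log2 fold change 0.81 ± 0.17, adjusted p = 0.00116), and the metallothioneins Mt1 and Mt2, which bind zinc, fell (-1.11 ± 0.25 and -0.69 ± 0.17). Trpm6, a magnesium channel, measured -0.60 ± 0.34 (adjusted p = 0.154), with SDs of log2 CPM of 0.19 in wild type and 1.15 in the knockout.

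Mitochondrial carriers were called higher in 11 of 40 and lower in 7 (5 and 15 on the TPM scale). Slc25a1, which exports citrate for lipid synthesis, rose with no overlap (60.2 to 80.6 CPM (median 71.1) in wild type, 92.8 to 147 CPM (median 115) in the knockout), and Slc25a25 rose likewise (0.70 ± 0.09). Slc25a34 and Slc25a42, the latter a carrier of coenzyme A, fell with no overlap (-0.90 ± 0.13 and -0.60 ± 0.10). ABC transporters were called higher in 12 of 43 and lower in 14 (3 and 17 on the TPM scale). Abcd3, an importer of fatty acids into peroxisomes, rose by 0.38 ± 0.10.

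Transcription factors of the interferon and NF-kappaB pathways rose in 22 of 33 cases and fell in 3 (median 0.98; 20 and 7 on the TPM scale). Stat2 (chromosome 10, 128270559 to 128292849), which carries the type I interferon signal to the nucleus, ran from 36 to 43.3 CPM (median 40.7) in wild type and from 42 to 193 CPM (median 126) in the knockout (log2 fold change 1.63 ± 0.20, adjusted p = 1.10e-05), with 9 of 10 knockout libraries above all of wild type. Irf9, which binds DNA in complex with it, rose by 0.99 ± 0.12. Irf1 ran from 123 to 176 CPM (median 150.2) and from 137 to 495 CPM (median 335) (log2 fold change 1.25 ± 0.18, adjusted p = 4.95e-05). Irf8, a factor of myeloid cells, rose by 1.52 ± 0.17 with no overlap. Nlrc5 and Ciita, the coactivators of the class I and class II antigen presentation genes, rose by 4.48 ± 0.40 and 3.02 ± 0.36, each with no overlap. Nfkbiz, an inducible NF-kappaB cofactor, rose by 2.27 ± 0.27 and Stat3 by 0.52 ± 0.07. The 3 that fell were Irf2 (-0.34 ± 0.08), Irf3 (-0.19 ± 0.06) and Cebpa (-0.16 ± 0.07), whose call was lost without any 1 of 13 of the 18 libraries (adjusted p 0.0571 to 0.114). With the smooth muscle covariate 13 were called higher and 1 lower. Leukocyte markers rose in the same libraries, and their part in the result was not tested.

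Early response factors were called higher in 15 of 34 cases and lower in 6 (12 and 9 on the TPM scale). Fos ran from 69.7 to 106 CPM (median 81.1) in wild type and from 147 to 296 CPM (median 218) in the knockout (log2 fold change 1.45 ± 0.14, adjusted p = 1.38e-06). Egr1 and Atf3 rose by 1.796 ± 0.18 and 1.78 ± 0.18, also with no overlap. Hif1a, the oxygen-sensing factor, rose by 1.23 ± 0.26, Xbp1, a factor of the unfolded protein response and of plasma cells, by 0.45 ± 0.11, and Myc by 0.61 ± 0.13. Ddit3, which acts in endoplasmic reticulum stress, fell (-0.70 ± 0.12). Fosl2 and Hsf1, the heat shock factor, fell (-0.39 ± 0.08 and -0.43 ± 0.09).

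Nuclear receptors fell more often than they rose, with 17 of 34 called lower and 4 higher (median -0.35); 3 and 2 with the smooth muscle covariate. Ppargc1a, a coactivator of mitochondrial genes, ran from 60 to 103 CPM (median 74.2) in wild type and from 15.4 to 53.3 CPM (median 37.2) in the knockout (log2 fold change -1.12 ± 0.22, adjusted p = 7.04e-04), with no overlap. Nr1i2, the xenobiotic receptor PXR, fell (-0.29 ± 0.07), and so did Ppara, a receptor for fatty acids (-0.61 ± 0.22), and Nr5a2, a driver of local steroid synthesis (-0.44 ± 0.17). For Ppara the adjusted p was 0.0509 without wild-type library 1, 0.0556 without wild-type library 2, 0.0516 without wild-type library 7 and 0.0503 without wild-type library 8. For Nr5a2 the call was lost without any 1 of 8 of the 18 libraries (adjusted p 0.0502 to 0.0691). The 4 that rose were Pparg, a fatty acid receptor of colonocytes (17.4 to 23 CPM (median 20.1) in wild type and 22.9 to 59.6 CPM (median 41) in the knockout), Nr1h4, Rxra (0.19 ± 0.07) and Ahrr, a repressor of the aryl hydrocarbon receptor (0.73 ± 0.25). For Rxra the adjusted p was 0.0523 without wild-type library 5, 0.0569 without wild-type library 7 and 0.0554 without wild-type library 8, and its sign turned on the TPM scale (-0.0064). Vdr, the vitamin D receptor, measured -0.12 ± 0.10 (adjusted p = 0.303), Ahr -0.12 ± 0.09 (adjusted p = 0.252) and Nr3c2, the aldosterone receptor, -0.07 ± 0.10 (adjusted p = 0.59).

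Clock genes were lower in the knockout. Of 17 factors and targets 9 were called lower and 2 higher, and with the smooth muscle covariate 4 and 1. Cry2, a repressor of the clock, ran from 33.5 to 51.8 CPM (median 44.7) in wild type and from 11.3 to 33 CPM (median 20.2) in the knockout (log2 fold change -1.06 ± 0.16, adjusted p = 8.85e-05), with no overlap. Per2 and Per3, further repressors, fell (-1.11 ± 0.17 and -0.92 ± 0.18), as did Arntl, the activator (-0.33 ± 0.08). Dbp, an output factor, fell (-1.05 ± 0.35). Nr1d1, a repressor within the clock, measured -0.78 ± 0.39 (adjusted p = 0.0994), but adjusted p was 0.0471 without knockout library 5 and 0.0364 without knockout library 8. The 2 that rose were Nfil3, which opposes Dbp (0.62 ± 0.13), and Bhlhe41 (0.79 ± 0.25). The labels gave no hour of collection, so the genotype and the hour cannot be told apart for these genes.

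**Figure D3:**
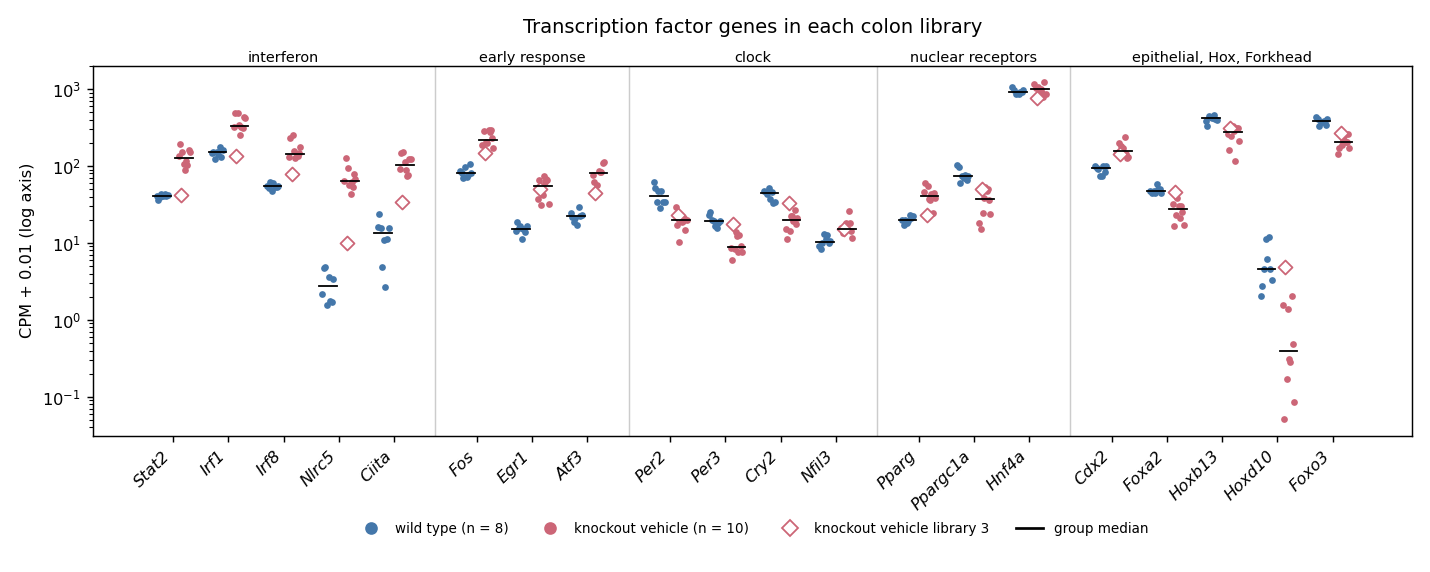
CPM (log axis) of transcription factors in each of the 8 wild-type and 10 knockout vehicle libraries, with group medians as bars and knockout library 3 as an open diamond. Irf1 rises from a median of 150.2 to 335 CPM, and Cry2 falls from 44.7 to 20.2 CPM.

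Of 45 epithelial factors 7 were called higher and 8 lower (3 and 12 on the TPM scale). This share of 33.3% was under the 49.4% over all genes. Cdx2, a factor of intestinal identity, ran from 74.6 to 100.4 CPM (median 92.9) in wild type and from 127 to 236 CPM (median 156) in the knockout (log2 fold change 0.88 ± 0.11, adjusted p = 1.52e-05), with no overlap, whereas its relative Cdx1 measured -0.08 ± 0.08 (adjusted p = 0.402). Hnf4a, a factor of the absorptive epithelium, measured 0.08 ± 0.09 (adjusted p = 0.461), and its sign turned on the TPM scale (-0.19) and with the covariate (-0.10). Foxa2 and Grhl2, both epithelial factors, fell (-0.80 ± 0.16 and -0.56 ± 0.09). Prdm1, a factor of plasma cells and of immature enterocytes, rose from a median of 4.31 to 23 CPM (2.92 ± 0.35), and plasma cell markers rose in the same libraries.

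Mesenchymal factors were mostly lower and leukocyte factors mostly higher. Mesenchymal and muscle factors were called lower in 19 of 37 cases and higher in 3, and the covariate left 1 and 1. Myocd, the cofactor of smooth muscle genes, fell (-1.49 ± 0.42). Lymphoid and myeloid factors were called higher in 19 of 32 cases and lower in 3 (11 and 4 on the TPM scale, 4 and 1 with the covariate). Among the higher ones were Spi1, the myeloid factor (1.33 ± 0.20), Tbx21 of type 1 T cells (1.83 ± 0.33) and Foxp3 of regulatory T cells (2.01 ± 0.51). Pax5 of B cells also rose (1.18 ± 0.41), but its adjusted p was 0.0523 without knockout library 2. B cell and follicle markers ran from 34.1 to 228 TPM in wild type and from 70.9 to 380 TPM in the knockout. Smooth muscle and leukocyte markers moved with these lists, by the values given above. Their part in the result was not tested beyond the fits with the smooth muscle covariate.

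Hox genes, which record position along the body axis, were called lower in 12 of 28 cases and higher in 0. Of the Hoxd cluster 6 of 8 tested genes were called lower, with log2 fold changes from -2.39 to -0.65 and a median of -1.69, and of the Hoxa and Hoxb clusters 3 of 11 and 3 of 8. Hoxb13, the factor of the most distal colon, ran from 333 to 459 CPM (median 415) in wild type and from 117 to 328 CPM (median 276) in the knockout (log2 fold change -0.68 ± 0.16, adjusted p = 0.00202), with no overlap, and Hoxd10 from 2.04 to 11.9 CPM (median 4.59) and from 0.0416 to 4.81 CPM (median 0.384). With the covariate 0 Hox genes were called. Among forkhead factors 12 of 26 were called lower and 3 higher (1 and 15 on the TPM scale). Foxo3 fell with no overlap (336 to 437 CPM (median 384) and 145 to 270.3 CPM (median 205)) and Foxm1, a factor of dividing cells, rose by 0.84 ± 0.15. E2f2, another cell cycle factor, rose by 1.53 ± 0.18. Zbtb factors were called lower in 14 of 39 cases and higher in 4 (1 and 19 on the TPM scale), with Zbtb44 and Zbtb2 lower (-0.83 ± 0.10 and -0.58 ± 0.07) and no overlap.

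The knockout libraries varied more than the wild-type libraries. The median SD of log2 CPM over all genes was 0.33 in the knockout and 0.21 in wild type, and the SD was larger in the knockout for 80.7% of genes. A test of the absolute deviations from the group mean called 49 genes (0.298%) more variable in the knockout and 0 in wild type; at an unadjusted p under 0.05 there were 3099 and 126. The 49 genes became 4 with deviations from the group median, 2 with the smooth muscle covariate and 7 to 153 without single libraries (153 without knockout library 6). Among list members the called genes included carriers and drug-metabolising enzymes. Cyp2d10, a cytochrome P450, had SDs of 0.10 and 0.91 (adjusted p for spread = 0.00256) with medians of 85.7 and 58.2 CPM. Its knockout values ran from 25.5 CPM in library 2 to 132 CPM in library 5. Slc17a4, an organic anion carrier, had SDs of 0.16 and 1.01 (adjusted p for spread = 0.00266), and the calls of Cyp2d10 and Slc17a4 held without any single library. Slc10a2 had SDs of 0.25 and 1.3003 (adjusted p for spread = 0.0149), with values under 7 CPM in libraries 1, 2, 4 and 10 and from 16.7 to 39.9 CPM in the other 6. Cyp2d22, Slc46a1, Slc25a36 and Slc40a1 were also called (0.0332, 0.0347, 0.0405 and 0.0492). The calls of these 5 genes were each lost without some single libraries. For Slc10a2 the adjusted p was 0.0701 without knockout library 10, 0.0614 without knockout library 2 and 0.0527 without knockout library 4. For Cyp2d22 the call was lost without any 1 of 11 of the 18 libraries (adjusted p 0.0535 to 0.0928), and for Slc46a1 the call was lost without any 1 of 13 of the 18 libraries (adjusted p 0.0501 to 0.0877). For Slc25a36 the call was lost without any 1 of 12 of the 18 libraries (adjusted p 0.0653 to 0.1), and for Slc40a1 the call was lost without any 1 of 16 of the 18 libraries (adjusted p 0.0508 to 0.113). The SDs of Slc30a10 differed by more than those of these genes (0.27 and 3.28) but did not pass (adjusted p for spread = 0.108). Slc15a4 went the other way (0.23 in wild type and 0.11 in the knockout; adjusted p for spread = 0.191).

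Some of these genes shared their highest or lowest knockout library and others did not. Knockout library 3 held the highest value of Slc30a10, Slc10a2 and Slc37a2 (465 CPM), and library 5 was second for Slc30a10, highest for Cyp2d10 and second for Trpv6. Library 2 was lowest for Slc30a10, Slc10a2, Cyp2d10 and Slc37a2 (29.5 CPM). Library 9 was highest for Trpv6 (461 CPM).

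**Figure D4:**
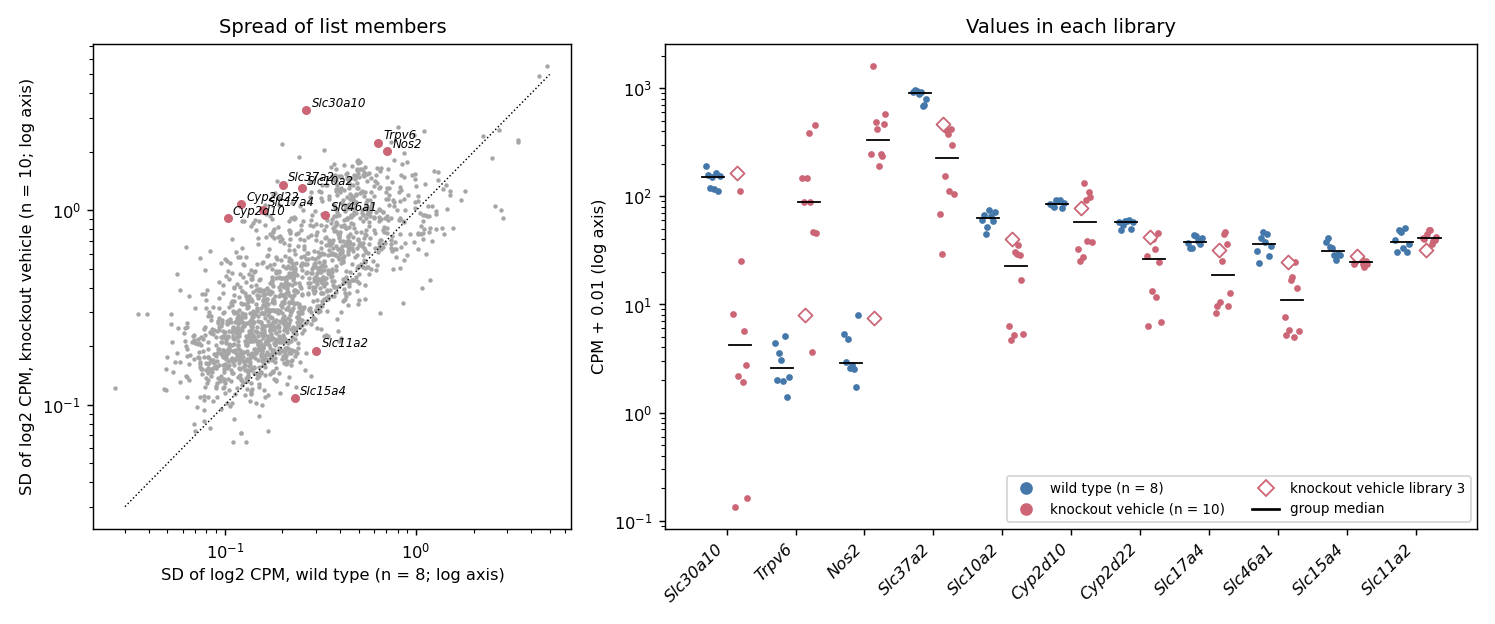
Left, SD of log2 CPM in the 10 knockout vehicle libraries against that in the 8 wild-type libraries (both log axes), 1 point per list member; right, CPM (log axis) in each library for genes named for their spread. Most points lie above the line of equal spread, and Slc30a10 reaches an SD of 3.28 in the knockout.

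List levels, the mean log2(CPM + 1) over a list's members, were compared with marker levels across the 10 knockout libraries for 18 pairs of lists. The cholesterol level ran from 5.53 to 6.08 in wild type and from 5.92 to 7.16 in the knockout, with 9 libraries above the wild-type range. Within the knockout it was higher where smooth muscle markers were lower (Pearson's r = -0.778, permutation p = 0.00702, adjusted p = 0.0421; Spearman's rho = -0.77, permutation p = 0.0127, adjusted p = 0.0761; r = -0.747 without the 2 libraries farthest from the median). It was higher where epithelial markers were higher (r = 0.851, permutation p = 0.00189, adjusted p = 0.017; rho = 0.733, permutation p = 0.0201, adjusted p = 0.0906; r = 0.684 without the 2 farthest). The level of sodium, proton and bicarbonate exchange also followed the epithelial markers (r = 0.927, permutation p = 0.0002, adjusted p = 0.0036; rho = 0.842, permutation p = 0.00381, adjusted p = 0.0686; r = 0.845 without the 2 farthest). These 3 relations passed by Pearson's r and not by Spearman's rho after adjustment, and the other 15 passed by neither. The ketone level had r = 0.682 with smooth muscle and r = -0.682 with leukocyte markers (permutation p = 0.0307 and 0.0309, adjusted p = 0.111 for both). The lists share their libraries and the CPM scale, and no batch was given within which to repeat the relations.

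**Figure D5:**
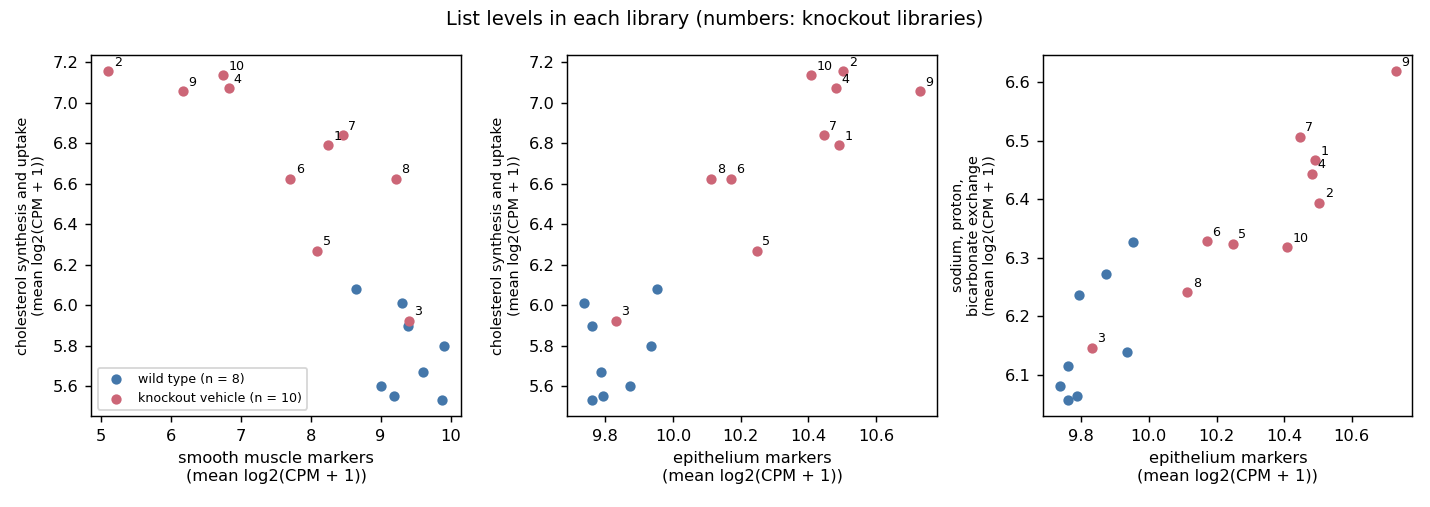
Mean log2(CPM + 1) of a metabolic or transport list against that of a marker list, 1 point per library, with the knockout libraries numbered. Within the 10 knockout vehicle libraries the cholesterol level falls with the smooth muscle level (r = -0.778) and rises with the epithelial level (r = 0.851).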

How the data were processed

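RNA of the distal colon was sequenced from poly(A) libraries. Per the submitters' processing notes the tools were cutadapt 3.7, STAR 2.7.8a, RSEM 1.3.3 and DESeq2 1.30.1 with the mouse build mm10. The authors deposited estimated counts and TPM for 50600 genes of the first cohort, and a table of their own comparison with log2 fold changes and p-values. The library with conflicting dose labels entered no comparison.

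Estimated counts, of which 17.6% of the non-zero values were not whole, were rounded and tested with edgeR 4.0.16 (R 4.3.3): low genes removed by filterByExpr, TMM scaling, robust quasi-likelihood fit on the 18 libraries, Benjamini-Hochberg adjustment over 16435 genes, threshold 0.05. The standard error of a log2 fold change was that change over the root of the F statistic. Spread was tested with limma 3.58.1 on absolute deviations of log2 CPM from the group mean. Marker sums used the deposited TPM. Gene positions came from GENCODE release M21, in which 50376 of 50600 identifiers were found. Relations used 100000 permutations.

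The alternatives were TPM with limma (pseudocounts 1 and 0.1, genes at 0.5 TPM in 8 libraries), DESeq2 1.42.0, RLE scaling, voom, other filters, all 4 groups, a smooth muscle covariate and leaving out libraries. The scripts were tested on simulated data. The genes named were list anchors, the 3 called members of each list with the lowest adjusted p in each direction at a mean of 5 TPM or more, and the genes of widest spread; 218 of 393 such genes are given (some results are not reported here), and 6 more (Ebp, Ahrr, Bhlhe41, Adora2b, Hmgcs1 and Idi1) were chosen after their values were seen. The members and lists were chosen with earlier results of these data known. The authors' deposited table called 4694 genes higher and 4324 lower, and of the 8113 called here 7925 were called there in the same direction and 1 in the other.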

Additional observations from a re-analysis of the deposited data

Results flagged for a closer look

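Single libraries stood apart from the rest of their group, by a gap to the nearest library that was large against the range of the group, in 36 of 464 groups of libraries examined over the named genes. Chance alone marks about 1 group in 20. Of these 19 were knockout library 3, which lay below the other 9 knockout libraries in each. Values here are log2(CPM + 1). The lipid and energy genes were Atp5a1 (10.13, others 10.54 to 10.84), Lpin2 (4.97, others 5.94 to 6.82) and Mdh2 (7.65, others 8.09 to 8.46). The enzymes of nitric oxide, tryptophan and nucleotides and the antioxidant Txn1 were Nos2 (3.07, others 7.57 to 10.65), Ido1 (1.02, others 5.46 to 8.32), Upp1 (5.29, others 8.37 to 9.61), Gda (6.195, others 7.91 to 9.23), Xdh (5.902, others 7.998 to 9.86) and Txn1 (9.37, others 9.93 to 10.37). Carriers and channels were Sgk2 (4.64, others 5.96 to 7.38), Clic5 (8.59, others 9.42 to 10.17), Slc7a9 (2.16, others 3.67 to 5.19) and Slc44a4 (8.696, others 9.401 to 10.06). Transcription factors were Stat2 (5.43, others 6.502 to 7.6), Irf1 (7.11, others 7.997 to 8.95), Nlrc5 (3.44, others 5.49 to 6.997), Ciita (5.12, others 6.23 to 7.24), Nr1h4 (5.203, others 5.89 to 6.47) and Irf9 (5.33, others 6.04 to 6.48). Other knockout libraries stood apart as follows. Library 2 did so for Acod1 (5.16, others 0.98 to 3.06), Cdx1 (7.55, others 7.897 to 8.24), Nr5a2 (4.33, others 5.12 to 6.01), Rdh10 (6.72, others 5.07 to 5.796) and Slc7a11 (5.53, others 2.26 to 3.99). Library 9 did so for Nr3c2 (7.56, others 6.54 to 7.08). In wild type, library 3 stood apart for Slc15a1 (7.55, others 7.91 to 8.18) and Cdx1 (8.34, others 7.96 to 8.12). In wild type, library 5 stood apart for Adora2b (0.77, others 0 to 0.36), Smpdl3b (2.73, others 2.198 to 2.43), Irf2 (6.83, others 6.36 to 6.57) and Foxa2 (5.91, others 5.51 to 5.69). In wild type, library 6 stood apart for Stat3 (7.48, others 7.19 to 7.301) and Abca1 (4.16, others 4.504 to 4.803). In wild type, library 7 stood apart for Ahrr (1.98, others 1.43 to 1.61) and Mrpl24 (6.22, others 6.37 to 6.49). In wild type, library 8 stood apart for Mgll (4.501, others 5.35 to 5.77).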

How the results depend on the processing

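Each comparison was repeated with other settings. Main counts were 4147 genes higher and 3966 lower (51.1% of calls higher). On the log2(TPM + 1) scale 2176 were higher and 6141 lower (26.2% of calls higher), and with a pseudocount of 0.1 there were 2162 and 6145 (26.0%); the median gene moved by -0.17 there. With the smooth muscle covariate 1288 were higher and 899 lower. DESeq2 size factors and test, RLE scaling, limma voom, no filter, a stricter filter and a fit over all 4 groups kept both counts within 1.5 times, as did leaving out single libraries (3762 to 4437 higher, 3418 to 4689 lower). Lists and families with more members higher than lower numbered 16 with either TPM pseudocount and 36 to 40 without single libraries. Those with more lower numbered 48 with either TPM pseudocount, 13 with the covariate and 16 to 23 without single libraries.

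With the covariate the called members were 15 higher for cholesterol synthesis and uptake (main 24), 5 for glycolysis (15), 11 for complex I (25) and 13 for interferon factors (22), and 3 lower for nuclear receptors (17), 4 for clock genes (9), 0 for cytochromes P450 (17) and 4 for potassium channels (27). Complex I had 4 higher with either TPM pseudocount, and potassium channels 41 lower with voom. Leaving out single libraries gave 23 to 25 higher for cholesterol, 14 to 16 for glycolysis, 20 to 32 for complex I and 22 to 23 for interferon factors, and 12 to 18 lower for nuclear receptors, 9 to 11 for clock genes, 13 to 20 for cytochromes P450 and 17 to 40 for potassium channels. The cause of these shifts was not tested. Genes with a larger spread in the knockout, 49 in the main test, were 4 with deviations from the median, 2 with the covariate, 15 without wild-type library 5 and knockout library 6 (a setting chosen after seeing the data), and 7 to 153 without single libraries, with 153 without knockout library 6.

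The list level of nuclear receptors, knockout minus wild type, was -0.038 as a median over members and -0.34 on the TPM scale (main -0.24), and that of clock genes -0.76 as a median over members (main -0.45). The sulfide level turned to -0.16 on the TPM scale (main 0.03). On that scale the relations across knockout libraries had r = -0.771 (cholesterol with smooth muscle), 0.753 (cholesterol with epithelium) and 0.686 (sodium, proton and bicarbonate exchange with epithelium), none under 0.05 after adjustment (permutation, adjusted p = 0.0923 each).

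Over the fold changes of named genes, 1871 of 2007 values under settings other than the covariate and left-out single libraries kept their direction and their side of the threshold, 85 lost and 39 gained the call and 12 changed sign. The smooth muscle covariate gave 101 losses and 11 sign changes of 224. The sign turned on the TPM scale for Ebp (-0.089 with pseudocount 1 and -0.090 with 0.1), Rxra (-0.0064 with pseudocount 1 and -0.0066 with 0.1), mt-Co1 (-0.18 with either pseudocount), Cpt1a (-0.12 with either pseudocount), Hnf4a (-0.19 with either pseudocount) and Abca1 (-0.23 with pseudocount 1 and -0.30 with 0.1). It turned with the covariate for Acod1 (-0.041), mt-Co1 (-0.030), Cpt1a (-0.054), Cftr (0.13), Hnf4a (-0.10), Cyp2d10 (0.059), Slc17a4 (0.018), Abca1 (-0.088), Cdx1 (0.082), Hsd11b2 (0.081) and Kcnq1 (0.10). Without single libraries signs turned within mt-Co1 from -0.038 to 0.061, Scnn1a from -0.087 to 0.0022 and Cftr from -0.11 to 0.032. The difference in spread of Slc15a4 turned to 0.41 on the TPM scale.

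No paired analysis was possible because the library numbers only follow the order of deposit and no label links a wild-type to a knockout library. Depth limits genes of a few counts: 3 counts corresponded to 0.108 to 0.132 CPM, and no label gave a batch to repeat the tests within.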
